A study of Mus musculus with 15 samples.

Results

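Interferon-stimulated genes were followed in regulatory T cells (Tregs), which are defined by Foxp3 and hold other immune cells in check. The set holds 46 named genes, all of them found among the 45706 gene rows of the count table, and all 46 passed the filter on low counts that left 18423 genes for testing. The mice were adult animals of the line named RelB-dDC and littermate controls, on the C57BL/6 background. Both carried a Foxp3 reporter through which the cells were sorted, so the reporter is shared by every group. The labels do not spell out the alleles or the promoter behind the line's name, which is read here as dendritic cells without the NF-kappaB protein RelB and is shortened to dDC. Spleen gave 3 control and 3 dDC libraries, thymus 3 and 2, and the peritoneal cavity 2 and 2. The labels do not say whether each library came from a separate animal, so p-values measure only the spread between these libraries, which may be technical.

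Interferons are signalling proteins that cells release on sensing viruses, other microbes or misplaced nucleic acid. Type I interferons bind a receptor made of Ifnar1 and Ifnar2, and the kinases Jak1 and Tyk2 then activate a complex that holds Stat2 and Irf9 and binds a DNA element called the ISRE in the promoters of target genes. Interferon gamma binds Ifngr1 and Ifngr2 and acts through a different element, the GAS. The targets include sensors of nucleic acid, enzymes that block viral replication, GTPases that attack the compartments of intracellular microbes, and brakes such as Usp18. T cells keep a low level of these transcripts without infection, and tonic interferon in the thymus is known to reach maturing thymocytes.

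The promoters were searched for the elements of both pathways. The RefSeq promoter table (GRCm38.p6, 250 bases before each start) had a window for 34 of the 46 genes. The ISRE core was searched as GAAA, any 2 bases and GAAA again, on both strands, with overlapping matches allowed. It lay in the window of 16 of 34 members (47.1 percent), against 3.46 percent of all 27025 genes of the promoter table and 3.47 percent of the 10933 tested genes that have a window. The GAS core, TTCNNNGAA, which reads the same on both strands and can overlap an ISRE match, was found in 8 of 34 members (23.5 percent), against 8.13 percent of all genes. Where the ISRE core was present, its first match lay between 222 and 20 bases before the start, and within 120 bases in 13 of 17 windows. Among members lower in peritoneal than in spleen Tregs (below), 8 of 15 with a window held it, and among the others 8 of 19. Irf7 and Irf9 had no match in these windows, which says only that these letters are not there. Each stretch below holds the matches with up to 30 bases on either side. The first 6 belong to the members with the highest mean level whose whole stretch did not overlap an exon. The last 3 belong to members with large tissue differences, chosen after their values were seen. Capitals mark matches to the ISRE core or its reverse complement, and each line reads 5′ to 3′ on the strand of the gene.
Gbp7: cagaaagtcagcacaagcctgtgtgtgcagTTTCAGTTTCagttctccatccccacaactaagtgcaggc
Igtp: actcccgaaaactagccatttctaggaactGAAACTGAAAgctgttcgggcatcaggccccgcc
Trim30a: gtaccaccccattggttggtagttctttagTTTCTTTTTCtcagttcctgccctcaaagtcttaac
Ifit1: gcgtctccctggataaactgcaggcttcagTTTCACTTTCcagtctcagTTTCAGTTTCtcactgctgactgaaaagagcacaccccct
Stat2: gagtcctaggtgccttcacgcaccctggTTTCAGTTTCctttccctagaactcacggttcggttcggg
Bst2: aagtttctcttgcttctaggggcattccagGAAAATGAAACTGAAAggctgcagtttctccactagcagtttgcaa
Isg15: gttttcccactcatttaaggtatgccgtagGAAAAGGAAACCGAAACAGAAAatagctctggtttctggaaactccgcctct
Ifit3: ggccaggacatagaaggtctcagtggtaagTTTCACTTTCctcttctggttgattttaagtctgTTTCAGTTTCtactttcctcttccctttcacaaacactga
Apol9b: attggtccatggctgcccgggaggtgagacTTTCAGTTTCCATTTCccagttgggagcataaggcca

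On GRCm38.p6 these stretches are chr3:142530253-142530322 on the plus strand for Gbp7, chr11:58199492-58199555 (plus) for Igtp, chr7:104465194-104465259 (minus) for Trim30a and chr19:34640755-34640843 (plus) for Ifit1. They are chr10:128270248-128270315 (plus) for Stat2, chr8:71537557-71537632 (minus) for Bst2, chr4:156200845-156200926 (minus) for Isg15, chr19:34583343-34583446 (plus) for Ifit3 and chr15:77729005-77729071 (plus) for Apol9b. Isg15 held 3 matches that overlap in 1 run, and Bst2 and Apol9b 2 overlapping matches each. Ifit1 and Ifit3 each held 2 separate matches.

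Libraries held 15714286 to 24332044 counts. Levels are given as CPM, which are counts relative to the library total after TMM scaling. The 6 Treg markers Foxp3, Cd3e, Cd4, Il2ra, Ikzf2 and Ctla4 were counted in every library. They summed to 4617 to 5019 CPM in spleen, 4664 to 5519 CPM in thymus and 3415 to 4880 CPM in the peritoneal libraries. Between peritoneal cavity and spleen over both genotypes, Foxp3 did not pass (log2 fold change 0.23, edgeR adjusted p = 0.479). Cd3e, a chain of the T cell receptor complex, was lower in the peritoneal cavity (-0.33, edgeR adjusted p = 0.0152). Il2ra (-0.47), Ikzf2 (-0.36), Cd4 (-0.27) and Ctla4 (-0.05) had negative values that did not pass. Against thymus, Il2ra (-0.97), Ikzf2 (-0.68) and Ctla4 (-0.47) were lower (edgeR adjusted p = 0.00176, 0.00169 and 0.048), while Foxp3, Cd3e and Cd4 did not pass. Relb in the sorted Tregs, which are not the target of the deletion as read here, was between 7.72 and 37.6 CPM and does not check the genotype labels. In bulk RNA, a smaller share of cells that transcribe a gene and less transcript per cell cannot be told apart.

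**Figure D1:**
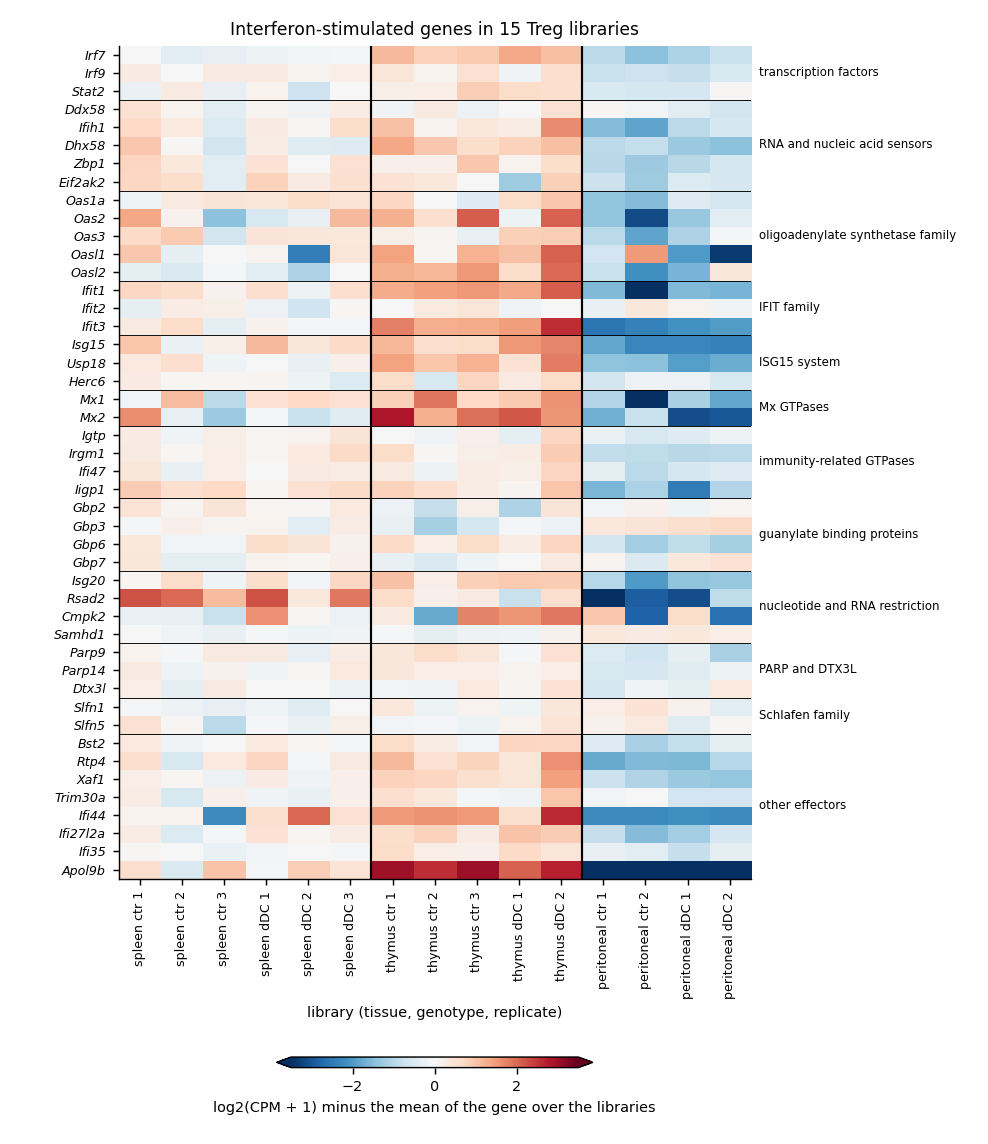
Heat map of the 46 genes (rows, grouped by role) in 15 libraries (columns, by tissue, genotype and replicate). Colour gives log2(CPM + 1) minus the mean of the gene over all libraries, with the scale ending at the arrows; most rows are blue in the 4 peritoneal libraries and reddest in the thymus, while control and dDC columns of a tissue look alike.

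In the peritoneal cavity, 7 of the 46 genes were lower in control Tregs and 10 in dDC Tregs than in those of the spleen, and 0 were higher in either. Of all tested genes, 0.499 and 0.423 percent were lower and 0.293 and 0.483 percent higher. Which members were called depended on single libraries, as given below. Isg15, a ubiquitin-like protein that is linked to other proteins, was 6.13-fold lower in controls and 10.1-fold lower in dDC mice. Ifit3, of a family that binds viral RNA, was 7.78-fold and 4.64-fold lower, and Usp18, which removes Isg15 and restrains the type I receptor, 3.32-fold and 3.54-fold. The mean log2 CPM over the 46 genes was 6.08 to 6.72 in the 6 spleen libraries, 6.66 to 7.38 in the 5 thymus libraries and 4.74 to 5.18 in the 4 peritoneal libraries, so that the tissues' ranges of this score met only between spleen and thymus. Over all tested genes the same mean lay between 2.39 and 2.80 in every library.

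In controls, 7 of 46 members were lower in peritoneal than in spleen Tregs by edgeR with p adjusted over all tested genes, and 0 were higher, where 0.499 percent of all tested genes were called lower and 0.293 percent higher. The members' log2 values had a median of -0.98, against -0.03 for all tested genes, and 39 of 46 were negative. In dDC mice 10 of 46 were lower and 0 higher (0.423 and 0.483 percent of all tested genes), with a median of -1.07 against -0.01 and again 39 of 46 negative. The 2 comparisons share no library, although 1 model gave the spread for both, and 36 members were negative in both. Apol9b, Ifit3, Iigp1, Isg15 and Usp18 were called in both, 5 members or 71.4 percent of the 7 and 50.0 percent of the 10. Group ranges lay wholly below spleen for 31 members in controls and 32 in dDC mice, where 13.2 and 13.4 percent of all tested genes did so, and wholly above for 3 in each (11.8 and 15.0 percent). With 2 peritoneal libraries a side, the called members depended on single libraries. In controls 1 remained called without peritoneal control 2, 3 without spleen control 1 or 2, any spleen dDC library or thymus control 2, and 4 without thymus control 1 or 3. In dDC mice 2 remained without peritoneal dDC 1 or 2 or spleen dDC 2 or 3, 3 without spleen dDC 1 and 6 without thymus control 3. DESeq2 called 21 lower in controls and 18 in dDC mice, limma voom called 2 and 4, and edgeR fitted on only the groups compared called 0 and 3. The share of all tested genes that these settings called is not given, so their counts show only how the calls depend on the method.

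Isg15 (ENSMUSG00000035692, mm10 chromosome 4, 156199424 to 156200818) stood at 54.9, 23.6 and 31.8 CPM in the spleen controls and at 7.09 and 4.88 CPM in the peritoneal controls. In dDC mice it stood at 61.8, 37.1 and 44.7 CPM in spleen and at 4.89 and 4.56 CPM in the peritoneal cavity. Every peritoneal library lay below every spleen library. The log2 fold change was -2.62 (SE 0.40, edgeR adjusted p = 0.0121) in controls and -3.34 (SE 0.41, edgeR adjusted p = 0.00299) in dDC mice. Ifit3 (ENSMUSG00000074896, chromosome 19, 34583531 to 34588731) was at 35.9, 45.2 and 23.0 CPM in spleen controls and 31.8, 27.5 and 27.6 CPM in spleen dDC libraries, against 4.11, 4.81, 5.82 and 6.67 CPM in the peritoneal libraries. It has a near-identical copy, Ifit3b, so its count is uncertain. Usp18 (ENSMUSG00000030107, chromosome 6, 121245906 to 121270916) was at 136 to 246 CPM in the 6 spleen libraries, with a median of 174, and at 61.1, 59.5, 42.2 and 49.0 CPM in the peritoneal libraries. Its ranges were separate as well.

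Apol9b (ENSMUSG00000068246, chromosome 15, 77729121 to 77736381), an apolipoprotein L gene with a near-identical copy, Apol9a, had the largest fitted differences of the 46 members in both genotypes. It had 22.5, 9.93 and 30.1 CPM in spleen controls and no count in either peritoneal control, which makes it at least 124-fold lower there against a floor of 3 counts per library (a limit for counting error only). In peritoneal dDC libraries it had 2 counts and 0 counts, against 13.9, 27.6 and 20.6 CPM in spleen dDC libraries. Iigp1, a GTPase that acts on vacuoles of intracellular microbes, was at 156 to 278 CPM in spleen and at 48.1, 68.0, 26.5 and 73.1 CPM in the peritoneal libraries. Its log2 fold change was -2.10 in controls and -2.03 in dDC mice (edgeR adjusted p = 0.0422 and 0.0416). The 2 other genes called in controls were Oas1a, which makes a messenger that activates RNA decay (log2 -1.74, edgeR adjusted p = 0.0389; copies such as Oas1g can share its reads), and Irf7, the factor that amplifies type I interferon (-0.96, edgeR adjusted p = 0.0414). The remaining genes called in dDC mice were Mx2, Isg20, Gbp6, Xaf1 and Irgm1, with log2 values of -6.51, -1.85, -1.48, -1.47 and -1.34; Mx2 had 0 and 2 counts in the peritoneal dDC libraries, and Gbp6 is uncertain because of its copy Gbp10.

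**Figure D2:**
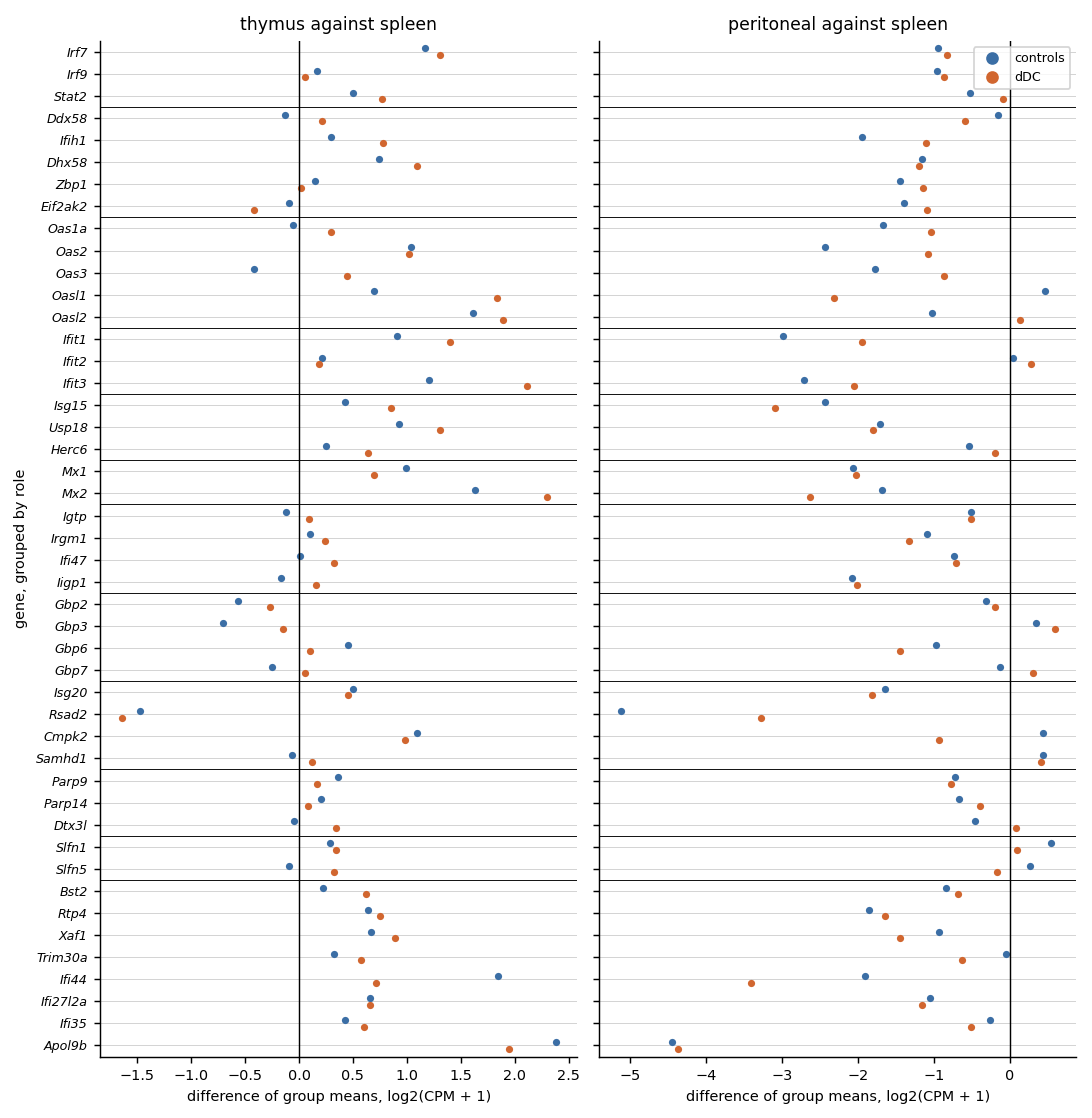
Difference of group means on the log2(CPM + 1) scale for each gene, thymus against spleen (left) and peritoneal cavity against spleen (right), with controls in blue and dDC mice in orange. Most points lie right of 0 for the thymus and left of 0 for the peritoneal cavity in both genotypes; the spleen libraries of a genotype serve both panels.

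To use every library, the tissue differences were also averaged over both genotypes, a comparison chosen after seeing the data. Peritoneal Tregs then had 23 members lower and 1 higher than spleen Tregs by edgeR (1.66 and 1.23 percent of all tested genes), with a median log2 value of -1.16 against -0.03. Ranges over both genotypes lay wholly below spleen for 26 members and wholly above for 2 (2.76 and 2.3 percent of all tested genes). The count of 23 became 15 without peritoneal control 2, peritoneal dDC 1 or peritoneal dDC 2, and lay between 15 and 22 over all 15 libraries left out. The genes called with each library left out and with every other setting tried were 14: Irf7, Irf9, Oas1a, Ifit3, Isg15, Usp18, Irgm1, Iigp1, Gbp6, Isg20, Rsad2, Rtp4, Xaf1 and Apol9b.

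Of the 3 transcription factors, 2 were lower. Irf9, the DNA-binding partner of Stat2, ranged from 322 to 393 CPM in spleen and from 182 to 221 CPM in the peritoneal libraries (log2 -0.92, SE 0.14, edgeR adjusted p = 0.00405). Irf7 ranged from 160.3 to 209 CPM and from 75.4 to 119 CPM (log2 -0.90, SE 0.13, edgeR adjusted p = 0.00321). Stat2 overlapped, at 85.8 to 177 and 92.7 to 147 CPM (log2 -0.31, edgeR adjusted p = 0.574). Reads of Irf7 and Irf9 cannot be told from those of the overlapping genes Phrf1 and Rnf31, since the libraries do not mark the strand.

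Among the 5 sensors of nucleic acid, Ifih1 (log2 -1.58), which detects long double-stranded RNA, and Zbp1 (-1.31), which detects Z-form nucleic acid, were lower (edgeR adjusted p = 0.0231 and 0.0149). Dhx58, Ddx58 and the kinase gene Eif2ak2 did not pass; all 5 had negative values. In the oligoadenylate synthetase family 2 of 5 were lower, Oas1a (log2 -1.41, edgeR adjusted p = 0.00617) and Oas3 (-1.37, edgeR adjusted p = 0.0491), and Oasl2 did not pass (-0.48, edgeR adjusted p = 0.719). In the IFIT family 2 of 3 were lower, Ifit3 (log2 -2.59, edgeR adjusted p = 0.000336) and Ifit1 (-2.51, edgeR adjusted p = 0.044). Ifit1 ranged from 86.7 to 165 CPM in spleen and was at 32.9, 1.27, 33.5 and 31.5 CPM in the peritoneal libraries, so that peritoneal control 2 stood apart. Ifit2 overlapped fully (39.3 to 77.2 against 53.7 to 85.5 CPM).

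In the Isg15 system, Isg15 (log2 -2.98) and Usp18 (-1.78) were lower (edgeR adjusted p = 0.000176 and 0.00184), and Herc6, an Isg15 ligase, did not pass (-0.37). Of the Mx GTPases, a family known to trap viral nucleoproteins, Mx2 was lower (-4.26, edgeR adjusted p = 0.016) from low counts. Mx1 did not pass (-2.25, SE 0.67, edgeR adjusted p = 0.12) although its peritoneal libraries had 7.88, 0.38, 7.26 and 4.17 CPM against 8.42 to 37.1 CPM in spleen. Counts do not show whether these mice make working Mx proteins. Immunity-related GTPases, typical targets of interferon gamma, were lower in 3 of 4 cases. Irgm1 went from 277 to 429 CPM in spleen to 137 to 148 CPM (log2 -1.22, SE 0.16, edgeR adjusted p = 0.00199), Iigp1 had a log2 value of -2.07 and Ifi47 of -0.73 (edgeR adjusted p = 0.00256 and 0.0496). Igtp, whose reads can overlap those of Irgm2, did not pass (-0.52, edgeR adjusted p = 0.218), although its 4 peritoneal libraries (292 to 378 CPM) lay below its 6 spleen libraries (392 to 587 CPM).

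Of the 4 guanylate binding proteins, GTPases that coat vacuoles and bacteria, 1 was lower. That was Gbp6 (log2 -1.24, edgeR adjusted p = 0.00499), while Gbp2 overlapped (-0.26), and Gbp3 (0.47, edgeR adjusted p = 0.196) and Gbp7 (0.09) had positive values. Gbp7 was at 569 to 937 CPM in spleen and at 761, 507, 922 and 1023 CPM in the peritoneal libraries. Among genes that restrict nucleotides or RNA, the nuclease Isg20 (-1.77, edgeR adjusted p = 0.00411) and Rsad2, or viperin (-5.27, edgeR adjusted p = 0.00858), were lower. Rsad2 was at 16.5 to 62.5 CPM in spleen, with a median of 50.5, and at 0, 0.82, 0.57 and 6.33 CPM in the peritoneal libraries. Samhd1, which breaks down the nucleotides that reverse transcription needs, was the 1 member called higher: its spleen libraries held 870.3 to 1045 CPM and its peritoneal libraries 1333, 1264, 1335 and 1218 CPM (log2 0.42, SE 0.08, edgeR adjusted p = 0.016). That call was lost without peritoneal dDC 1. The Schlafen genes Slfn1 and Slfn5 did not pass (0.32 and 0.04).

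The remaining effectors were lower in 5 of 8 cases: Rtp4 (log2 -1.77), Xaf1 (-1.21), Ifi27l2a (-1.11), Ifi44 and Apol9b. Ifi27l2a has a near-identical copy, Ifi27l2b, so its count is uncertain. Ifi44 had 0, 0, 1 and 0 counts in the 4 peritoneal libraries, but its spleen control 3 also had none. Bst2, or tetherin, which holds budding virions at the cell surface, ranged from 84.0 to 117 CPM in spleen and from 40.9 to 71.6 CPM in the peritoneal libraries without overlap, yet did not pass (-0.77, edgeR adjusted p = 0.0593). Parp14 was the 1 of 3 genes of the PARP and Dtx3l group that was lower (-0.54, edgeR adjusted p = 0.039).

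**Figure D3:**
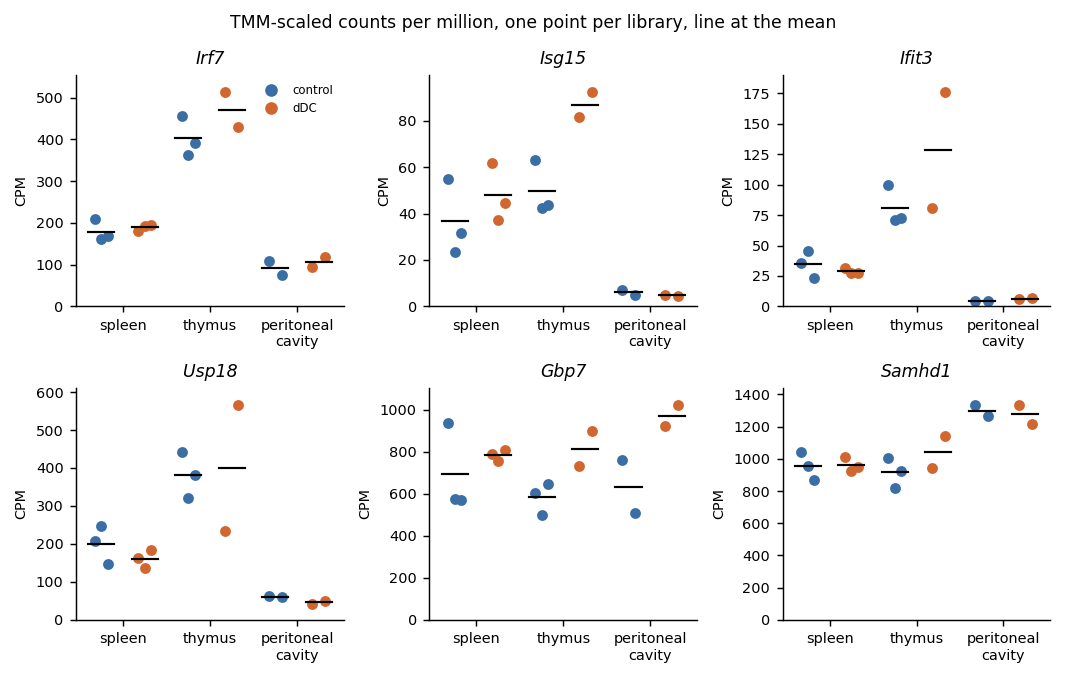
CPM of 6 members in each library (points, blue for control and orange for dDC) with the group mean (line), on axes that start at 0. Irf7, Isg15, Ifit3 and Usp18 lie lowest in all 4 peritoneal libraries, while Gbp7 overlaps between tissues and Samhd1 is highest there.

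In thymic Tregs a few members were higher than in spleen. In controls Irf7 and Apol9b, 2 of 46 members, were higher than in spleen and 0 lower (0.157 and 0.445 percent of all tested genes), with a median log2 value of 0.31 against 0.00 and 33 of 46 positive. In dDC mice Irf7 and Ifit3 were higher, again 2 of 46, and 0 lower (0.0489 and 0.13 percent), with a median of 0.51 against -0.02 and 42 of 46 positive. Irf7 was the 1 member called in both genotypes. Group ranges lay wholly above spleen for 11 members and wholly below for 2 in controls (6.82 and 7.98 percent of all tested genes), and for 21 and 0 in dDC mice (10.2 and 12.6 percent). Irf7 (ENSMUSG00000025498, chromosome 7, 141262706 to 141266481) was at 209, 160.3 and 168 CPM in spleen controls, 180.4, 194 and 195 CPM in spleen dDC libraries, 455, 362 and 392 CPM in thymus controls and 514 and 429 CPM in thymus dDC libraries. Every thymus library was above every spleen library. The log2 fold change was 1.17 (SE 0.16, edgeR adjusted p = 0.00655) in controls and 1.31 (SE 0.18, edgeR adjusted p = 0.0118) in dDC mice. Without any 1 of the 11 spleen or thymus libraries the 2 calls in controls became 1, Irf7. The 2 calls in dDC mice became 0 without spleen dDC 1, 2 or 3, and 1 without thymus dDC 1, thymus dDC 2 or peritoneal dDC 2.

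Over both genotypes, again as a comparison chosen after seeing the data, 5 members were higher in thymus than in spleen and 0 lower (0.418 and 0.901 percent of all tested genes): Irf7 (log2 1.24, SE 0.12, edgeR adjusted p = 0.000331), Ifit3 (1.69), Apol9b (2.22), Usp18 (1.12) and Xaf1 (0.79). Ranges lay wholly above spleen for 7 members and wholly below for 0 (1.13 and 1.86 percent). The count was 3 (Irf7, Ifit3 and Apol9b) without spleen dDC 1, spleen dDC 2, thymus control 1 or thymus dDC 2, and DESeq2 called 11. Ifit3, with a spleen median of 29.7 CPM, was at 99.4, 71.2 and 72.6 CPM in thymus controls and 80.7 and 176 CPM in thymus dDC libraries. Usp18 was at 441, 322 and 380.2 CPM in thymus controls and 234 and 566 CPM in thymus dDC libraries, so that thymus dDC 1 fell within the spleen range. Apol9b reached 122, 92.4, 124, 63.6 and 102 CPM. Oasl2, a ubiquitin-like member of its family, was at 55.8 to 70.8 CPM in thymus controls and 38.3 and 98.5 CPM in thymus dDC libraries, against 10.8 to 24.4 CPM in spleen, but its adjusted p was 0.066. Gbp2 and Gbp3 had negative values (-0.42 and -0.43) that did not pass, and Rsad2, at 6.90 to 20.3 CPM in thymus against 16.5 to 62.5 CPM in spleen, had a value of -1.62.

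Mean levels ran in the order thymus, spleen, peritoneal cavity for 29 of 46 members in controls and 36 of 46 in dDC mice. The share of all tested genes with that order is not given. Between peritoneal cavity and thymus over both genotypes, also chosen after seeing the data, 30 members were lower and 2 higher (2.58 and 3.03 percent of all tested genes), with a median of -1.41 against 0.00. Ranges lay wholly below thymus for 30 members and wholly above for 2 (3.87 and 4.51 percent). Leaving out 1 library gave 23 to 31 lower. Irf7 was 4.40-fold, Usp18 7.44-fold, Isg15 12.3-fold and Ifit3 19.3-fold lower in the peritoneal cavity (edgeR adjusted p = 8.47e-06, 4.74e-05, 3.06e-05 and 1e-05). The 2 higher members were Samhd1 (0.40) and Gbp3, which was at 213 to 263 CPM in the peritoneal libraries and 73.3 to 159 CPM in thymus (log2 0.90, edgeR adjusted p = 0.0101). Leaving out peritoneal control 1, thymus dDC 1 or peritoneal dDC 1 ended the call of Samhd1. The comparisons of this paragraph and the preceding ones share libraries, so they are given side by side and not as separate evidence.

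The comparison the mice were made for, dDC against control, moved none of these genes past the threshold. That does not show them unchanged: in simulated thymus and spleen controls the fit called 14.7 percent of genes changed by a log2 of 1. In spleen, thymus, the peritoneal cavity and the average of the 3, 0 of 46 members were called by edgeR in either direction (over all tested genes 0.0 percent in spleen and thymus, 0.00543 percent higher in the peritoneal cavity, and 0.0489 percent higher and 0.0271 percent lower in the average). The members' median log2 values were 0.00 in spleen, 0.20 in thymus, 0.08 in the peritoneal cavity and 0.15 in the average, against -0.01, -0.03, 0.00 and -0.02 for all tested genes. At an unadjusted p under 0.05 there were 0 members in spleen, 2 higher in thymus, 3 higher and 2 lower in the peritoneal cavity, and 2 higher and 1 lower in the average, where 4.27, 6.57, 6.36 and 9.31 percent of all tested genes reached that level. With limma 0 members were called, and with DESeq2 Mx2 and Oasl1 were lower in the peritoneal cavity and Mx2 in the average. Further tests asked whether the dDC difference itself differed between thymus and spleen, or between peritoneal cavity and spleen. By edgeR they called 0 members each, and 0.0 percent of all tested genes. At an unadjusted p under 0.05 there were 0 and 2 members, where 5.06 and 4.89 percent of all tested genes reached that level. Without peritoneal control 1, in which Ifit1 stood at 32.9 CPM against 1.27 CPM in peritoneal control 2, Ifit1 was called higher in the peritoneal cavity, in the average and in the difference between peritoneal cavity and spleen, with 1 sample then left in the control group.

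**Figure D4:**
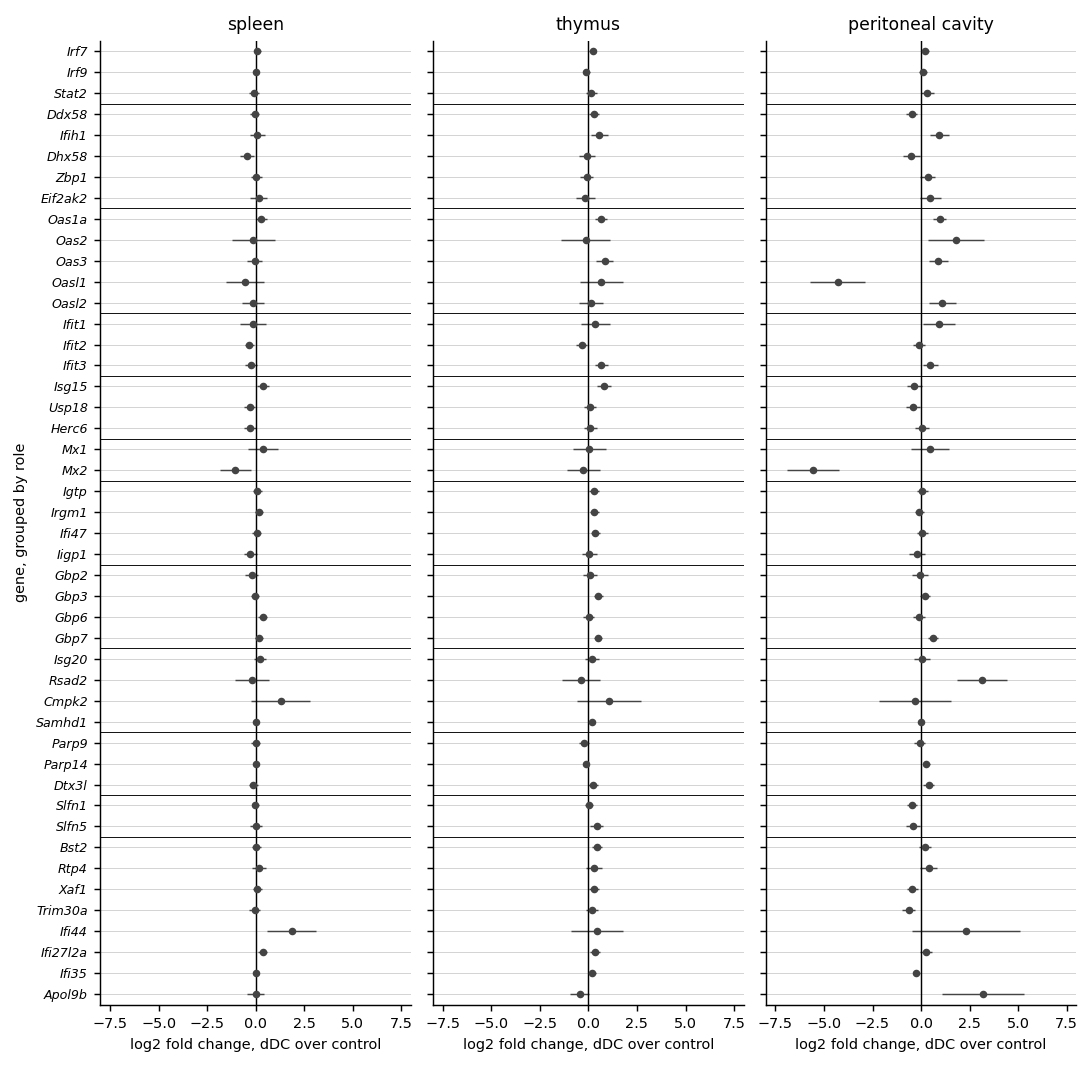
edgeR log2 fold change of dDC over control (points) with its standard error (bars) for each gene in spleen, thymus and peritoneal cavity. Spleen values run from -1.05 (Mx2) to 1.86 (Ifi44). In the peritoneal cavity the points far from 0 have wide bars, and those of Mx2, Rsad2, Apol9b and Ifi44 rest on few counts. Oasl1, also far from 0 there, had 118 and 458 counts in controls against 33 and 1 in dDC libraries. In every panel 0 of 46 members passed.

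In spleen the smallest p belonged on the higher side to Gbp6 (log2 0.36, SE 0.24), Ifi44 (1.86, SE 1.26) and Ifi27l2a (0.35, SE 0.24), and on the lower side to Mx2 (-1.05), Ifit2 (-0.33) and Dhx58 (-0.44), all with an edgeR adjusted p of 1.0. The value of Mx2 turned to 0.35 and that of Dhx58 to 0.10 without spleen control 1. Among the other members, Irf7 had a log2 value of 0.08 (SE 0.16), Irf9 of 0.01 (SE 0.17), Igtp of 0.08 (SE 0.23), Bst2 of 0.03 (SE 0.24) and Gbp2 of -0.20 (SE 0.33). Stat2 had -0.11 (SE 0.27) and Irgm1 0.15 (SE 0.20). Each of these differences was smaller than its standard error.

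In thymus, Isg15 stood at 63.1, 42.4 and 43.5 CPM in controls and at 81.4 and 92.5 CPM in dDC mice. Its groups did not overlap, but the log2 value of 0.81 (SE 0.35) had an edgeR adjusted p of 0.748. Gbp3 (0.52) and Gbp7 (0.48) followed on the higher side, and Ifit2 (-0.35), Apol9b (-0.44) and Parp9 (-0.21, which turned to 0.04 without thymus dDC 1) on the lower side, with none past the threshold. Ranges lay wholly above the controls for 7 members and wholly below for 2 of 46, where 9.06 and 10.3 percent of all tested genes did so. The library thymus dDC 2 held the highest value of the 5 thymus libraries for 28 of 46 members and of all 15 libraries for 22, with a mean log2 CPM over the members of 7.38, against 6.75 in thymus dDC 1. The 3 thymus controls had 7.04, 6.66 and 6.92, so that thymus dDC 1 lay within their range and thymus dDC 2 above it. For how many of all tested genes thymus dDC 2 was highest is not given.

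In the peritoneal cavity, Oas1a was at 13.1 and 11.8 CPM in controls and at 25.6 and 22.8 CPM in dDC mice (log2 0.96, SE 0.35, edgeR adjusted p = 0.669), and Gbp7 at 761 and 507 CPM against 922 and 1023 CPM (0.62, SE 0.25, edgeR adjusted p = 0.739). Both ranges were separate, and both genes also led the higher side of the average over tissues, Oas1a with 0.63 (edgeR adjusted p = 0.292) and Gbp7 with 0.43 (edgeR adjusted p = 0.329), followed by Oas3 (0.56). Rsad2 had 0 and 13 counts in controls and 11 and 114 counts in dDC mice. Mx2 had 35 and 63 counts in the peritoneal controls and 0 and 2 in the dDC libraries (edgeR adjusted p = 0.35), and Oasl1 118 and 458 counts against 33 and 1 (edgeR adjusted p = 0.625); Slfn1 followed on the lower side (-0.47). Ranges were wholly higher for 9 members and wholly lower for 10, where 18.7 and 15.4 percent of all tested genes were. In spleen they were wholly higher for 2 and lower for 0 (4.94 and 5.19 percent).

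The genes that carry the interferon signal were taken from a separate list. Of its 44 listed genes for receptors, kinases, transcription factors, brakes, sensors and ligands, 36 were tested. Over both genotypes 6 were lower and 1 higher in peritoneal than in spleen Tregs (1.66 and 1.23 percent of all tested genes), with a median log2 value of -0.24 against -0.03. Ifngr1, the ligand-binding chain of the interferon gamma receptor, was the 1 higher gene. It was at 326 to 569 CPM in spleen, 637 to 1069 CPM in thymus and 3088, 2053, 4069 and 3405 CPM in the peritoneal libraries (log2 2.72 in controls and 2.87 in dDC mice, edgeR adjusted p = 0.000192 and 0.000152), and it was called with each library left out. Fitted on the 2 groups of controls alone, it did not pass (edgeR adjusted p = 0.0943).

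**Figure D5:**
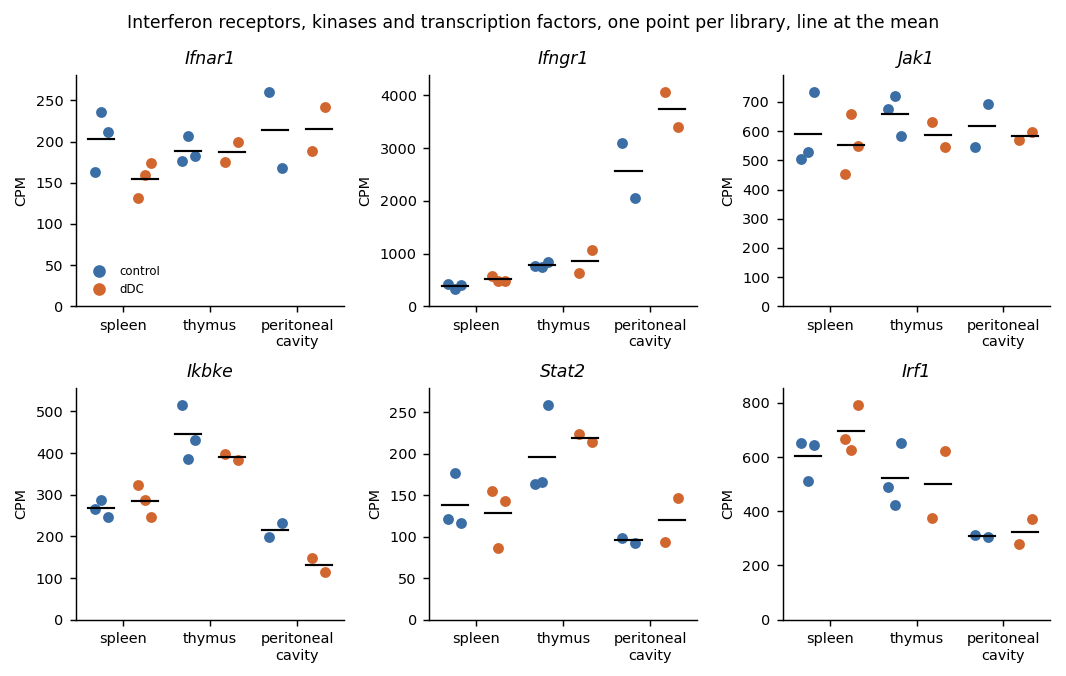
CPM of the receptor genes Ifnar1 and Ifngr1, the kinase genes Jak1 and Ikbke and the transcription factor genes Stat2 and Irf1 in each library (points, blue for control and orange for dDC) with the group mean (line), on axes that start at 0. In the 4 peritoneal libraries Ifngr1 is highest and Ikbke and Irf1 are lowest, and Ifnar1 and Jak1 overlap between tissues.

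The type I receptor chain Ifnar1 (132 to 235 CPM in spleen and 167 to 260.5 CPM in the peritoneal libraries) and Jak1 (452 to 735 and 546 to 693 CPM) overlapped between the tissues. Irf1, an early target of interferon gamma, was at 511 to 792 CPM in spleen and 281 to 370 CPM in the peritoneal libraries (log2 -1.03, edgeR adjusted p = 0.00592), and Ikbke, a kinase upstream of interferon genes, had -0.71 (edgeR adjusted p = 0.00592). In thymus against spleen Ifngr1 (0.87), Ifngr2 (0.96) and Ikbke (0.59) were higher over both genotypes and 0 were lower, where 0.418 and 0.901 percent of all tested genes were (edgeR adjusted p = 0.0117, 0.0135 and 0.0192). Genes for interferon alpha, beta and lambda had too few counts to be tested, and Ifng was at 0.11 to 36.0 CPM. In the dDC comparisons 0 of the 36 were called.

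A second list of 63 interferon-stimulated genes outside the 46, of which 62 were tested, had a median log2 value of -0.46 in controls and -0.44 in dDC mice between peritoneal and spleen Tregs. In peritoneal against spleen Tregs 2 were lower in controls, Trim30d (log2 -2.28, edgeR adjusted p = 0.0042) and Shisa5 (-0.59, edgeR adjusted p = 0.0375), and 6 in dDC mice. Of all tested genes, 0.499 and 0.423 percent were lower in these comparisons. Over both genotypes 16 were lower and 1 higher, Gbp11 (1.66 and 1.23 percent of all tested genes), with a median of -0.45 and 55 of 62 negative. In dDC comparisons 0 were called. Trim30d and Trim30a are near-identical copies that can share reads.

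Markers of other cells moved with the tissues. Summed over 8 B cell genes, levels were 2535 to 3675 CPM in spleen, 1124 to 1634 CPM in thymus and 3288 to 5438 CPM in the peritoneal libraries, with all 8 counted in every spleen and peritoneal library, and with Fcmr at 0 in all thymus libraries. Ighm made up most of the thymus sums (1055 to 1579 CPM). Macrophage and monocyte genes (10 listed) summed to 100.2 to 367 CPM in spleen, 3.27 to 26.6 CPM in thymus and 58.6 to 1569 CPM in the peritoneal libraries, where peritoneal control 2 was highest and Fcgr1 was at 0 in all 4. Erythroid genes (6 listed) summed to 2396 to 7992 CPM in spleen, 0.88 to 398 CPM in thymus and 1.13 to 392 CPM in the peritoneal libraries, where 1 of the 6 was at 0 in all 4. Dendritic cell genes (8 listed, 4 of them counted in every spleen library) summed to 357 to 778, 430.1 to 777 and 567 to 1875 CPM. Ccr7, which T cells also express, made up most of the thymus sum (418 to 743 CPM), while H2-Ab1 was at 83.9 to 320.3 CPM in spleen, 0.44 to 7.42 CPM in thymus and 288 to 1318 CPM in the peritoneal libraries. The plasmacytoid list (7 genes), of cells known for making type I interferon, summed to 49.3 to 121, 41.0 to 106 and 72.7 to 193 CPM. Tcf4, Ccr9, Pacsin1 and Spib made up most of these sums. Siglech and Klk1 had a median of 0 CPM in each tissue, with Siglech at most 9.82 CPM in a peritoneal library, and Cox6a2 was at most 1.94 CPM. The sums therefore do not show that such cells were present. Genes of double positive thymocytes (7 listed) summed to 11.4 to 75.9 CPM in spleen, 44.9 to 94.8 CPM in thymus and 9.05 to 50.9 CPM in the peritoneal libraries. Of these, Rag1, part of the recombinase of antigen receptor genes, was at 2.85 to 9.69 CPM in thymus and at most 0.056 CPM in spleen (log2 8.10 over both genotypes, edgeR adjusted p = 0.00514), and it was at 0 in the peritoneal libraries. The other genes of that list did not separate in this way. Dntt (2.86), Cd8b1 (0.52) and Cd8a (-0.46) did not pass between thymus and spleen (edgeR adjusted p = 0.339, 0.795 and 0.98). Arpp21 overlapped between these tissues, and Rag2 and Ptcra had too few counts to be tested. The part of these cells in the tissue differences was not tested. The fits without a peritoneal library do not test it, since each left 1 library in a group.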

How the data were processed

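Messenger RNA of sorted Tregs was sequenced in 15 libraries. Per the labels' protocols, cDNA was made from a poly-dT primer with template switching and amplified, without strand marks or molecular identifiers. Per the submitters' processing notes, bcl2fastq 2.19.1, GSNAP and featureCounts 1.6.0 were used with the build mm10. For the strand setting and multiply matching reads, nothing is given in the sources used here. As values, the authors deposited raw counts per Ensembl gene. Of 45798 features, 92 spike-ins (at most 6 counts in a library) were left out. Symbols came from an Ensembl gene-name table supplied for this work and were found for 45143 of 45706 genes.

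Genes were filtered with filterByExpr, scaled with TMM and fitted in 1 edgeR 4.0.16 quasi-likelihood model (R 4.3.3, robust, 6 group means, residual df 9). All tests are two-sided, with Benjamini-Hochberg adjustment and a threshold of 0.05. The main fit was adjusted over 18423 genes. Fits with other libraries or without the filter were adjusted over the genes each of them tested. These were for example 32425 without the filter and 20573 without thymus dDC 1. DESeq2 gave its own adjusted p. The median biological coefficient of variation was 0.55. The score is the mean log2 CPM with a prior count of 2. The fit was tested on simulated counts with genes changed between thymus and spleen controls. It called 16 of 109 genes changed by a log2 of 1 (14.7 percent) and 52 of 91 changed by 2 (57.1 percent). Alternatives were DESeq2 1.42.0, limma 3.58.1 (voom), DESeq2 size factors, no filter, only the groups compared, and each library left out. The tissue comparisons over both genotypes were added after seeing the data.

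The members and lists were chosen with earlier results of these data known. Named were members past the threshold in dDC comparisons, up to 8 a direction in each tissue comparison of controls with a mean of at least 5 CPM, a fixed set of 13 (Irf7, Irf9, Stat2, Isg15, Usp18, Ifit1, Ifit3, Mx1, Oasl2, Bst2, Gbp2, Igtp and Irgm1), where none passed the 3 smallest p a direction, and up to 4 genes of the other lists; further genes were named after their values were seen. Some genes of the lists are not reported here by name.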

Additional observations from a re-analysis of the deposited data

How the results depend on the processing

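No paired analysis was possible because the labels give no replicate numbers that groups share. Every setting kept the count of members called between dDC and control at 0 except DESeq2, which called 2 lower in the peritoneal cavity and 1 lower in the average, and leaving out peritoneal control 1, which called 1 higher in the peritoneal cavity, in the average and in the difference between peritoneal cavity and spleen (range 0 to 1 over the libraries left out in each). Between tissues DESeq2 called more members: in controls 4 higher and 1 lower in thymus and 1 higher and 21 lower in the peritoneal cavity against spleen, in dDC mice 6 higher in thymus and 1 higher and 18 lower in the peritoneal cavity, and over both genotypes 11 higher in thymus. With limma 2 were lower in the peritoneal cavity in controls, 4 lower there and 1 higher in thymus in dDC mice, and 9 higher in thymus over both genotypes. Without the filter 15 were lower in the peritoneal cavity in controls. Fitted on only the groups compared, against spleen 1 was higher in thymus and 0 lower in the peritoneal cavity in controls, 0 higher in thymus and 3 lower in the peritoneal cavity in dDC mice, and 1 was higher in peritoneal cavity than thymus over both genotypes. The cause was not tested, but the last setting has fewer libraries and fewer residual degrees of freedom. Shares of all tested genes are given for the main fit only. The counts of the other settings therefore do not show whether a setting called more or fewer genes throughout.

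With each library left out in turn, the members higher in thymus than spleen numbered 1 to 2 in controls, 0 to 2 in dDC mice and 3 to 5 over both genotypes. Those lower in the peritoneal cavity than spleen numbered 1 to 7, 2 to 10 and 15 to 22, with 0 to 1 higher over both genotypes, and against thymus 23 to 31 were lower and 1 to 2 higher. Where this left 1 library in a group, its spread was taken from the other groups. No member called between tissues changed direction under any setting. Among values that did not pass, Mx2 (0.3522) and Dhx58 (0.1022) in spleen turned positive without spleen control 1 (lowest values over the libraries left out -1.5234 and -0.7483), Parp9 in thymus (0.0434, lowest -0.5176) without thymus dDC 1, and the average of Oasl1 (0.0544) on spleen and thymus alone. Depth limits the members Apol9b, Ifi44, Mx2 and Rsad2, whose peritoneal values rest on few or no counts. It also limits Cmpk2 (259 and 0 counts in peritoneal controls, 197 and 3 in peritoneal dDC libraries) and Oas2 (48 and 0, 49 and 104).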

Other observations

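Levels can be compared between genes only per length. Scaled by the gene lengths of the deposited table, Ifi27l2a was the most abundant of the 46 members, at a mean of 1258 CPM per kilobase in spleen, 1935 in thymus and 580.4 in the peritoneal cavity. That place rests on a short listed length of 463 bases and on reads that its copy Ifi27l2b can share. Igtp, a GTPase of the immunity-related family, followed in spleen at 239, with 233 in thymus and 167 in the peritoneal cavity. The order differed in thymus, where Ifi47 stood at 249 and above Igtp, and in the peritoneal cavity, where Slfn1 stood at 229.7 and above Igtp. Ifi44 was the least abundant member in spleen, at 1.03 CPM per kilobase.

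In spleen, spleen control 1 held the highest value of the 6 libraries for 20 of 46 members, and it also had the highest sum of erythroid genes (7992 CPM). In the peritoneal cavity the highest value was in peritoneal dDC 2 for 19 of 46 members. For all tested genes such counts are not given. Whether these libraries differ in handling is not given in the labels.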
